A study of Mus musculus with 36 samples.

Results

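Macrophages of the infarcted left ventricle were compared between day 3 and day 1 after ischemia-reperfusion (IR). Single heart cells had been sorted into 384-well plates and sequenced with SORT-seq, which counts transcripts by a short random tag, the unique molecular identifier (UMI). All mice were male C57BL/6, 8 weeks old, and IR was a ligation of the left anterior descending artery that was released after 1 hour. Neither a transgene nor a drug is named for any of these plates. The files name no cell type, so a well was taken as a macrophage from its counts. A macrophage well held at least 1000 UMIs, leaving out mitochondrial genes and spike-ins. At least 1% of its UMIs came from Lyz2, Ctss, C1qa, C1qb, C1qc, Cd68, Csf1r and Mrc1. The neutrophil genes S100a8 and S100a9 made up under 1%, and the fibroblast genes Col1a1, Col1a2, Col3a1, Dcn and Lum under 2%. This rule found 211 macrophage wells among 1054 wells of at least 1000 UMIs, 30 of 446 at day 1 and 181 of 608 at day 3. Over all 36 plates of the series the same rule found 410 of 3146 wells. Plates with at least 5 macrophage wells entered the gene comparison, which left 196 wells.

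Macrophages are phagocytes that engulf dead cells and debris. In an injured heart, some derive from cells that were resident before the injury, and others from blood monocytes that enter through the chemokine receptor Ccr2. Early after infarction these cells are known for inflammatory cytokines and chemokines, and later for clearing debris in lysosomes, handling the lipid of engulfed cells and releasing factors that act on matrix and vessels.

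The rule was first set against the counts themselves. Mouse macrophages are known for Lyz2, yet in these tables most lysozyme UMIs lay on the row of its neighbouring, near-identical gene Lyz1, which the rule does not sum. On the 5 day-1 and 6 day-3 plates with at least 5 wells that passed with both rows counted, 4870 UMIs of Lyz1 stood against 634 of Lyz2 at day 1, a ratio of 7.68, and 41518 against 3977 at day 3, a ratio of 10.4. How the authors' counting assigned reads that fit both genes is not given in the sources used here. With the rule as given, the day-1 plates 1 to 8 held 2, 1, 15, 4, 4, 1, 1 and 2 macrophage wells, so that plate 3 alone reached 5 wells. The day-3 plates 1, 3, 4, 5, 6 and 7 held 6, 19, 79, 8, 9 and 60. When Lyz1 was added to the sum, a choice made after seeing the data, the day-1 plates held 7, 2, 25, 7, 7, 2, 4 and 5 wells and the day-3 plates 6, 19, 93, 9, 12 and 76. Then 5 day-1 plates (1, 3, 4, 5 and 8) could be set against 6 day-3 plates. Results of both choices are given below, named the rule as given and both lysozyme rows. In all, 59 wells of day 1 and 215 of day 3 passed with both rows, of which 30 and 181 also passed the rule as given. The median share of the rule's genes was 1.6% by the rule as given and 1.01% with both rows at day 1. At day 3 it was 1.9% and 1.75%. Day-1 wells with S100a8 or S100a9 numbered 12 of 30 by the rule as given and 31 of 59 with both rows. Near the threshold, the day-3 plates 4 and 7 had 7 and 8 wells at 0.8 to 1% by the rule as given, and 11 and 9 wells at 1 to 1.2%.

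The genes of the rule describe the wells and were not tested. With both rows, the summed C1qa, C1qb and C1qc, which encode the complement protein C1q, lay between 2771 and 6807 CPM on the day-1 plates and between 7005 and 12548 CPM on the day-3 plates. CPM is UMIs per 1000000 nuclear UMIs in the summed macrophage wells of a plate. Lyz1 ran from 5085 to 10441 CPM at day 1 and from 13723 to 24361 CPM at day 3. The label was checked with macrophage genes outside the rule, among them Adgre1 (F4/80, on the row Emr1), Tyrobp, Fcer1g, Cd14, Itgam and Spi1 (on the row Sfpi1). All 10 such genes were above 0 on each of the 11 plates, between 95.9 and 4136 CPM. Of the genes listed for other blood cells, 6 of 10 of T and NK cells (Cd3e, Cd3g and Nkg7 among them), 2 of 3 of red cells, 2 of 10 of neutrophils (Ngp and Camp), 1 of 9 of dendritic cells (Ccr7) and 0 of 5 of B cells were at 0 on each plate. Genes of the rule were left out of these lists, so the neutrophil list lacks S100a8 and S100a9, whose traces are given below. The highest summed level of each list on any plate was 83.9 CPM for T and NK cells, 134 CPM for red cells, 586 CPM for neutrophils, 60.8 CPM for dendritic cells and 136 CPM for B cells.

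Depth and plate quality differed. The summed macrophage wells held 626661 UMIs over the 5 day-1 plates and 2372826 over the 6 day-3 plates, of which day-3 plates 4 and 7 gave 1482201 and 688133. The remaining day-3 plates gave between 28370 and 104965, and the day-1 plates between 67121 and 263253. Median UMIs per macrophage well were 11087 at day 1 and 7115 at day 3, and day-3 plate 3 was shallow, with a median of 1122. Day-3 plate 2 held no well of 1000 UMIs, and day-1 plate 9 held wells whose counts matched the same well positions of other plates, and neither was used. Of the macrophage wells of day-3 plate 6, 9 of 12 matched the same well position of a day-14 sham plate, and 3 of 7 on day-1 plate 5 matched plate 9. The labels name no mouse for a plate, so some plates may share a mouse, and p values describe the spread between plates.

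Markers of other cell types were counted in the same wells. Of the 13 cardiomyocyte genes listed, 8 were tested with both rows and all 8 were higher at day 3, with a median log2 fold change of 2.49. Summed over the list, they ran from 387 to 1300 CPM at day 1 (median 853) and from 1128 to 6633 CPM at day 3 (median 4694). Wells with at least 5% cardiomyocyte UMIs numbered 0 of 59 at day 1 and 16 of 215 at day 3. The endothelial list, of which Fabp4 alone was tested and higher, summed to a median of 149 CPM at day 1 and 419 CPM at day 3. The fibroblast list summed to 235 and 531 CPM, leaving out Col1a1, Col1a2, Col3a1, Dcn and Lum, which the rule limits. Its 1 tested gene was not called, and 2 genes were higher by DESeq2. No doublets were removed. S100a8 or S100a9 was seen in 31 of 59 wells at day 1 and 7 of 215 at day 3, and S100a8 reached 834 CPM on day-1 plate 8. What part these traces had in the results was not tested, and calls without the wells concerned are given below.

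The share of wells that passed the rule is given as a description, with no test, since it is an outcome of the rule itself. The genes of the rule were more abundant in day-3 macrophage wells, so the threshold of 1% and the number of macrophages cannot be told apart in this share. By the rule as given, the share was 32.3% ± 12.02 (SD, n = 6 plates) at day 3 and 14.0% on the single day-1 plate with 5 or more such wells. Over all day-1 plates with at least 10 wells it was 5.76% ± 4.53 (SD, n = 8). With both lysozyme rows the shares were 36.2% ± 10.04 (SD, n = 6) at day 3 and 15.3% ± 5.68 (SD, n = 5) at day 1, with 26.5% as the lowest plate at day 3 and 23.4% as the highest at day 1.

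**Figure D1:**
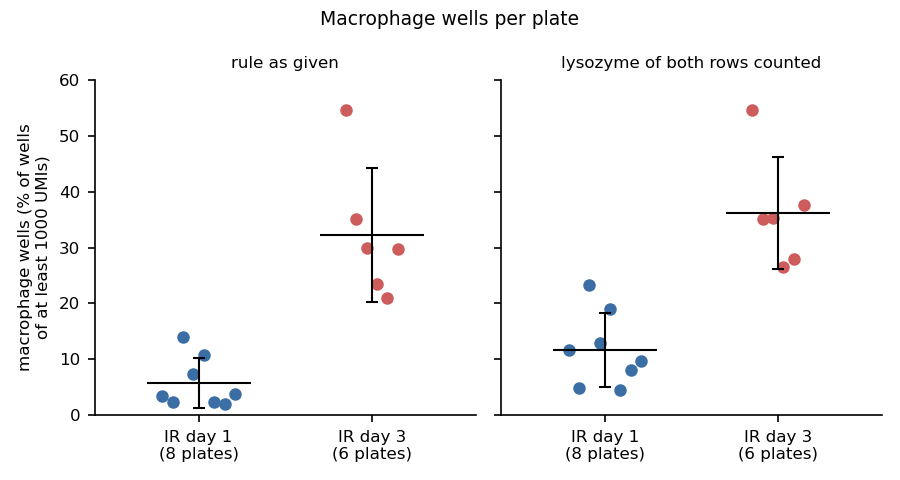
Share of wells of at least 1000 UMIs that were macrophage wells (vertical axis, percent), 1 point per plate for 8 plates of IR day 1 and 6 plates of IR day 3, by the rule as given and with both lysozyme rows counted; lines mark means and bars the SD. With both rows the day-3 plates sit at 26.5% and above.

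With the rule as given, 21 of 4098 genes passed an adjusted p of 0.05 in edgeR's quasi-likelihood test, 0.512% of those tested, and all 21 were lower at day 3. This fit sets 6 day-3 plates against 1 day-1 plate, which is assumed to vary like the others. None was called higher, while 227 genes were higher at an unadjusted p under 0.05, and DESeq2 called 16 genes higher and 11 lower. The 21 genes included 4 chemokines that attract monocytes and other leukocytes, Ccl2, Ccl4, Ccl7 and Ccl12, and the receptor C5ar1 for the complement fragment C5a. They also included the metallothionein Mt2, the oxysterol enzyme Ch25h, and genes known to respond to low oxygen (Bnip3, Slc16a3, Gapdh, Mif). Also among them were Chi3l3, Sdc4, Ccnd1, Myc, Tubb6, Rpl31, AA467197 and the gene model Gm9846.

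Ccl12 had the smallest p. In rule-chosen wells it stood at 1477 CPM on day-1 plate 3 and at 176, 102, 201, 236, 80.7 and 92.4 CPM on the day-3 plates 1, 3, 4, 5, 6 and 7 (log2 fold change −3.39 ± 0.44 SE, adjusted p = 0.000223). The 4 other day-1 plates of the wider choice held 83.9, 60.1, 426 and 44.7 CPM of Ccl12, within or below the day-3 range but for one, and with both rows its log2 fold change was −1.41 at an adjusted p of 0.146. Ccl4 behaved likewise, at 843 CPM on plate 3 and 120 to 343 CPM on the other day-1 plates, with an adjusted p of 0.393 with both rows. Ccl7 reached an adjusted p of 0.0946 there. Day-1 plate 3 was thus high for these 3 chemokines among the day-1 plates. Of the 15 genes called by the rule that were also tested with both rows, the other 12 were called again with the same sign. Leaving out day-3 plate 7 or 4 left 1 or 3 calls by the rule, and leaving out the shallow plate 3 gave 54.

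With both lysozyme rows, 353 of 1729 genes were called (20.4%), 168 higher (9.72%) and 185 lower (10.7%) at day 3. The median log2 fold change over all genes tested was −0.002. Of the 350 called genes that were tested under the rule as given, 341 had the same sign there, in fits that share the day-3 plates and day-1 plate 3. In 78 genes (4.51%) each day-3 plate lay above each day-1 plate, and in 96 (5.55%) below. A gene was tested when enough UMIs lay on 5 plates, the size of the smaller group, so it could enter through a single day. Among others, Vcan, Clec4e, Slc2a1 and Slc16a3 entered through day 1 and Ccl8 through day 3. The direction and the separation of such genes are therefore partly set by the filter. Leaving out day-3 plate 7 or 4 lowered the number of calls to 209 or 213, and leaving out wells that matched another plate, which took day-1 plate 5 and day-3 plate 6 below 5 wells, to 222. Unless stated otherwise, the values below are from this comparison, in CPM on the day-1 plates 1, 3, 4, 5 and 8 and the day-3 plates 1, 3, 4, 5, 6 and 7, in that order. Below, a call made in each fit that left out 1 plate means each such fit in which the gene was tested. Tested means tested by edgeR unless DESeq2 is named.

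**Figure D2:**
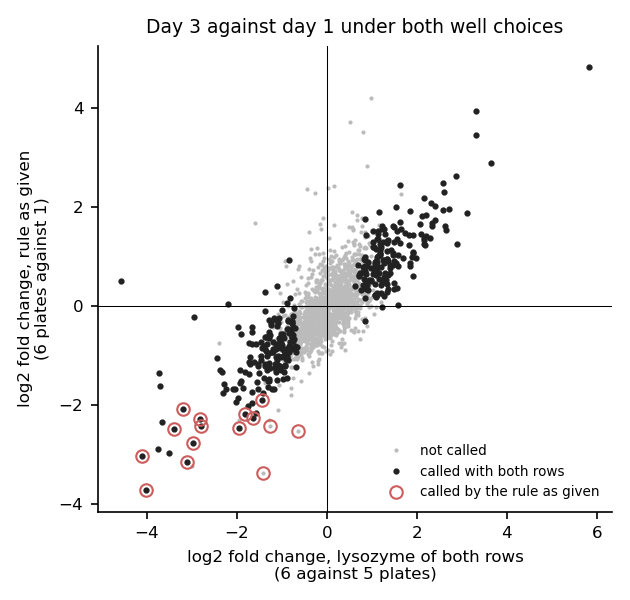
Log2 fold change of each gene, IR day 3 against IR day 1, with both lysozyme rows (horizontal axis, 6 against 5 plates) and with the rule as given (vertical axis, 6 plates against 1); black points were called with both rows and red circles mark genes called by the rule as given. The plates are shared, so the spread along the diagonal is no independent check, and 12 of the 15 circles hold a black point.

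Of the list of recruited monocyte genes, 8 of the 9 tested were lower at day 3 and none was higher, with a median log2 fold change of −1.65. The called genes were Ccr2, Vcan, Chi3l3, F10, Thbs1, S100a4, S100a6 and Cd44. Vcan, a large matrix proteoglycan made by monocytes, was at 201, 148, 493, 522 and 1132 CPM at day 1 and at 0, 0, 22.3, 0, 0 and 26.2 CPM at day 3. All 6 day-3 plates lay below all 5 day-1 plates, and 4 of them were at 0 (log2 fold change −4.53 ± 0.61, adjusted p = 0.000283). Chi3l3, the current Chil3, encodes the chitinase-like protein Ym1 of young monocytes and alternatively activated macrophages, and was at 327, 665, 384, 512 and 1162 CPM and then at 35.2, 0, 90.4, 75.5, 57.2 and 50.9 CPM. The groups were apart (−3.19 ± 0.40, adjusted p = 0.00017). Ccr2 itself overlapped, at 1719, 615, 517, 341 and 1460 CPM against 493, 102, 314, 176, 438 and 278 CPM (−1.57 ± 0.42, adjusted p = 0.0159). Of the 8, 7 were called in each fit that left out 1 plate. Counting Lyz1 added day-1 wells that failed the rule as given, and what part these wells had in the lower levels was not tested. In rule-chosen wells 1 of 11 tested genes was called lower, with a median of −0.38.

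Of 6 tested genes of alternative activation and growth factors, 3 were lower, Tgfbi and Ecm1 among them, and Igf1 was higher, so the list did not move one way.

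Of 19 tested cytokines, chemokines and their regulators, 8 were lower and 1 was higher, with a median of −1.34. The rule as given called 4 of 22 lower, with a median of −1.18. Of the 9 calls with both rows, 7 were made in each fit that left out 1 plate and tested the gene, and 6 without wells that matched another plate. Of the 7, Ccl8 was tested and called in 8 of 11 such fits and Ptgs2 in 10 of 11. Lower were Il1b, Il1rn, Ccl2, Ccl6, Cxcl3, Ptgs2, Clec4e and Nfkbia, and the 1 higher gene was Ccl8, another monocyte chemoattractant. Ccl2 (chromosome 11, 82035571 to 82037453), the main ligand of Ccr2, was at 2424, 3020, 2763, 7431 and 7226 CPM at day 1. At day 3 it was at 1234, 645, 625, 730, 219 and 565 CPM, below each day-1 plate (−2.81 ± 0.40, adjusted p = 0.000319). Il1b, the cytokine interleukin-1 beta, was at 805, 714, 793, 1535 and 2473 CPM and then at 141, 272, 121, 0, 0 and 102 CPM (−3.65 ± 0.58, adjusted p = 0.000689). Il1b is also a neutrophil gene, and stood at 1285 CPM in the other wells of day 1. Without wells of 0.2% or more S100a8 and S100a9, which leaves 4 day-1 plates, its log2 fold change was −3.12 (adjusted p = 0.00205). Clec4e, a receptor for dying cells and microbial glycolipid, fell from 260, 144, 240, 320 and 536 CPM to at most 34.0 CPM (−3.75 ± 0.46, adjusted p = 0.00017). The call of Cxcl3 rested on day-1 plate 8, at 4157 CPM, while the other day-1 plates ran from 16.8 to 544 CPM. Without that plate its adjusted p was 0.14, and by the rule as given its log2 fold change was 0.50. Cxcl2 overlapped too widely for a call, at 822 to 6004 CPM at day 1 and 9.53 to 2717 CPM at day 3 (adjusted p = 0.065). Ccl8, named after its values were seen, ran from 0 to 89.4 CPM at day 1 and from 106 to 713 CPM at day 3 (3.32 ± 0.56, adjusted p = 0.000949). It was not tested without day-3 plate 4, 6 or 7.

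Promoters of these inflammatory genes were read for sites of known factors, to show what the windows hold. A promoter here is the stretch from 250 bases before to 50 bases after a RefSeq start on GRCm38.p6, and both strands were searched. GGG and TTTCC with any 2 bases between them, a form of the site that NF-kB proteins bind, were in 8 of 20 cytokine-list genes with a promoter (40.0%), in 3 of 8 called ones, and in 2.56% of all genes tested. Windows of 30 bases around the site are printed 5′ to 3′ for a chemokine and for the NF-kB inhibitor Nfkbia, as examples of the list, with the site in capitals. Cxcl3 was called lower in 5 of 11 fits that left out 1 plate and not under DESeq2, and the call of Nfkbia was lost without matched wells.
Cxcl3, chr5:90786018-90786047, plus strand: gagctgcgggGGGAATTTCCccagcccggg
Nfkbia, chr12:55492657-55492686, minus strand: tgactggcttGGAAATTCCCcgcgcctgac
In Nfkbia the site reads on the opposite strand. The AP-1 letters TGANTCA were in 6 of the 20, in 1 of 8 called ones (12.5%) and in 7.31% of all genes tested. That called gene was the interleukin-1 receptor antagonist Il1rn.
Il1rn, chr2:24336707-24336736, plus strand: cttctgctagacTGAGTCAcgcctctggaa
These matches describe the letters and were not tested.

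Immediate early genes are switched on within minutes of a stimulus and also during tissue digestion. Of 22 tested immediate early and heat shock genes, 11 were lower and none was higher (0 at an unadjusted p under 0.05, and 0 by DESeq2), with a median of −1.24. Of the 11, 6 were called in each fit that left out 1 plate and 6 without matched wells, and by the rule as given 1 of 28 was called, with a median of −0.57. Fos was at 2986, 2936, 3255, 4488 and 4008 CPM at day 1 and at 1269, 2887, 1163, 932, 581 and 1302 CPM at day 3. Only the shallow day-3 plate 3 came near the day-1 range (−1.38 ± 0.32, adjusted p = 0.00728). In wells drawn to 1000 UMIs the log2 fold change of Fos was −0.75 at an adjusted p of 0.175. Nr4a1, an orphan nuclear receptor of the same early class, was at 493 to 1439 CPM and then at 28.6 to 136 CPM, apart from day-3 plate 3 at 747 CPM (−2.24 ± 0.55, adjusted p = 0.00961), and without matched wells its adjusted p was 0.054. Among 14 transcription factors of monocytes and macrophages, Cebpb, Irf5, Hif1a and Klf4 were lower and none was higher (0 at an unadjusted p under 0.05, with 1 by DESeq2), and 2 of the 4 were called in each fit that left out 1 plate. Cebpb, which drives inflammatory genes, was at 570, 881, 360, 2345 and 2056 CPM and then at 282, 136, 238, 277, 171 and 228 CPM (−2.44 ± 0.43, adjusted p = 0.00119). The lineage factor Spi1 (PU.1) did not pass, at 377 to 512 CPM against 200 to 358 CPM (−0.57, adjusted p = 0.0706).

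Of the list of glycolysis and the hypoxia response, 10 of 12 tested genes were lower and none was higher (0 at an unadjusted p under 0.05, and 0 by DESeq2), with a median of −1.20. Tpi1 and Pgam1 did not pass, and the hypoxia-response members Bnip3, Adm, Egln3, P4ha1, Ero1l and Ndrg1 were too sparse to be tested with both rows. Apart from Hif1a, the called genes carry glucose into the cell, break it down to lactate and export the lactate. Slc2a1 (chromosome 4, 119108711 to 119137983), the glucose transporter GLUT1, was at 151, 179, 204, 107 and 253 CPM at day 1. At day 3 it was at 0, 0, 18.9, 0, 28.6 and 7.27 CPM (−3.50 ± 0.40, adjusted p = 0.000138), all below day 1. Slc16a3, the lactate exporter MCT4, was at 109 to 285 CPM at day 1 and at 0 to 35.1 CPM at day 3 (−2.96 ± 0.37, adjusted p = 0.00017). Hif1a, the oxygen-regulated factor that activates such genes, was at 319, 372, 348, 320 and 387 CPM and then at 0, 102, 102, 101, 76.2 and 100 CPM. Its plates were tightly grouped on both days but for a 0 on the day-3 plate 1 (−1.87 ± 0.28, adjusted p = 0.000384). Gapdh was at 1622 to 2591 CPM and then at 93.0 to 831 CPM (−2.79 ± 0.40, adjusted p = 0.00033). It has many processed pseudogenes, so its count depends on how shared reads were assigned. The enzymes Hk2, Gpi1, Aldoa, Pgk1, Pkm and Ldha were lower, with log2 fold changes from −1.50 (Hk2) to −0.71 (Ldha). Leaving out each plate in turn kept 9 of the 10 calls wherever the gene was tested, and Ldha was called in 2 of 11 such fits. The rule as given had 3 of 18 lower, with a median of −1.52. Of 30 nuclear-encoded genes of the respiratory chain and ATP synthase 1 was higher (Atp5o) and none lower (1 at an unadjusted p under 0.05), with a median of 0.04. DESeq2 called 0 of the list in either direction, and Atp5o was called in 6 of 11 fits that left out 1 plate and lost without matched wells.

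**Figure D3:**
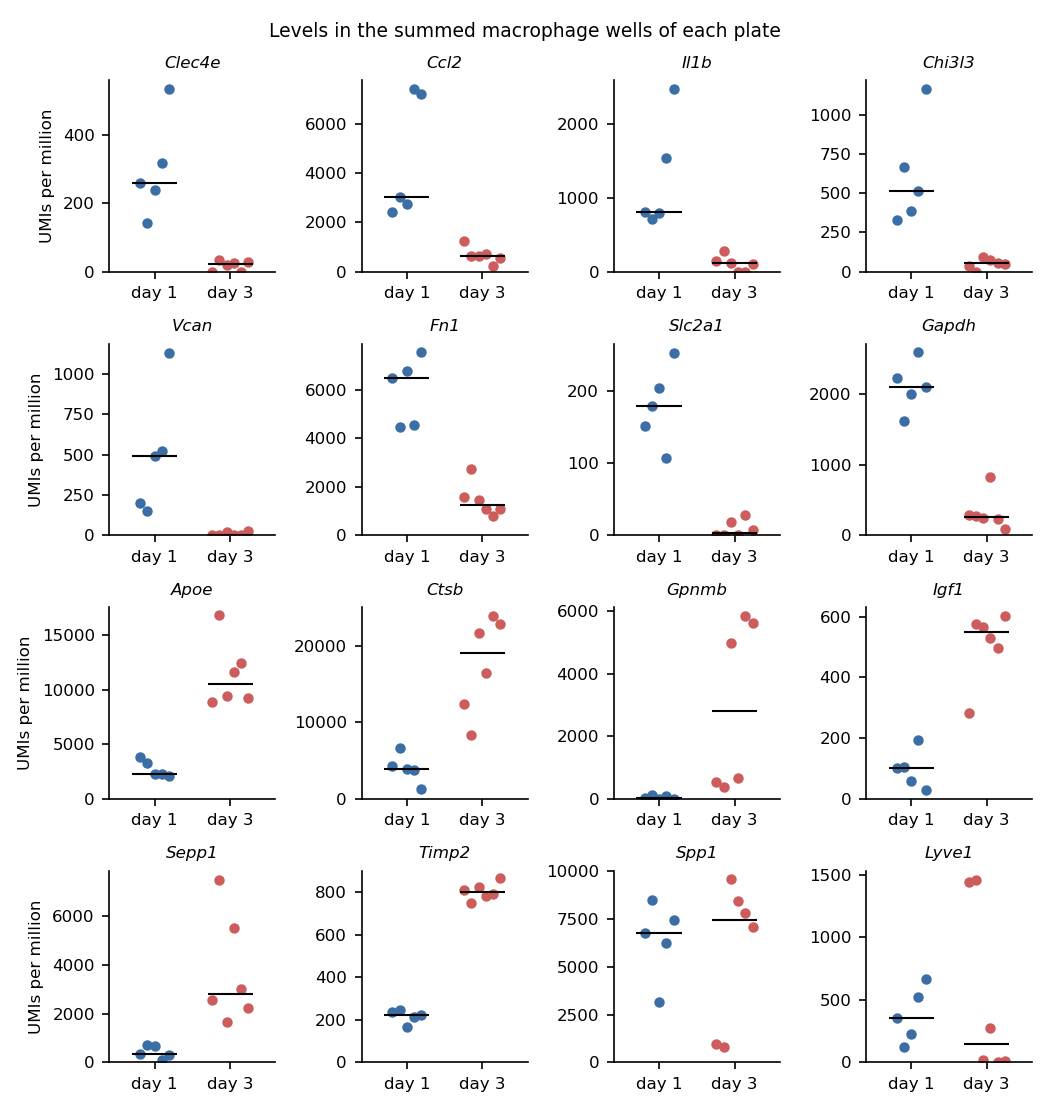
Levels in the summed macrophage wells of each plate (vertical axes, CPM), 1 point per plate for 5 plates of IR day 1 and 6 plates of IR day 3 with both lysozyme rows, 16 genes; lines mark medians. Ccl2, Clec4e and Slc2a1 lie lower on each day-3 plate than on any day-1 plate, Apoe and Timp2 lie higher, and Spp1 and Lyve1 overlap.

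Of 28 tested lysosomal enzymes and membrane proteins, 16 were higher at day 3 and none was lower (0 at an unadjusted p under 0.05, and 0 by DESeq2), with a median of 1.03, and 26 of the 28 had a positive fold change. By the rule as given, 26 of 29 were positive with a median of 0.62, and none was called (5 higher and 1 lower at an unadjusted p under 0.05, and 0 by DESeq2). Ctsb (chromosome 14, 63122462 to 63145923), the cysteine protease cathepsin B, was at 4277, 6674, 3928, 3795 and 1341 CPM at day 1 and at 12407, 8355, 21629, 16367, 23884 and 22836 CPM at day 3. Each day-3 plate was above each day-1 plate, a 4.57-fold difference (log2 2.19 ± 0.40, adjusted p = 0.00159). The aspartic protease Ctsd overlapped through day-3 plate 3, at 432 to 2454 CPM against 1155 to 9822 CPM (1.88 ± 0.48, adjusted p = 0.0119), and without the wells that matched another plate its adjusted p was 0.069. Creg1, a glycoprotein of the endosome and lysosome, was at 201, 205, 204, 213 and 104 CPM and then at 1128, 577, 623, 353, 534 and 772 CPM (1.84 ± 0.28, adjusted p = 0.000467). Also higher were Lamp1, the main membrane protein of the lysosome, the hexosaminidase chain Hexa, the acid lipase Lipa, the cholesterol carrier Npc2, the saposin precursor Psap, progranulin (Grn), and Ctsh, Gusb, Gla, Tpp1 and Man2b1. Of the 16, 12 were called in each fit that left out 1 plate and tested the gene, and 8 when wells matching another plate were left out. Gla, among the 12, was not tested without day-3 plate 4, 6 or 7, nor without the matched wells. Of 14 subunits of the proton pump that acidifies the lysosome, 4 were higher (Atp6v1a, Atp6v1c1, Atp6v1d and Atp6ap2) and none lower (0 at an unadjusted p under 0.05, and 0 by DESeq2), with a median of 0.40, and 3 of the 4 were called in each fit that left out 1 plate. In rule-chosen wells 0 of 14 were called (2 higher at an unadjusted p under 0.05, and 1 by DESeq2). Atp6ap2 was at 132 to 235 CPM at day 1 and at 302 to 645 CPM at day 3 (1.47 ± 0.24, adjusted p = 0.000753).

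Many lysosomal promoters are known to carry the palindrome CACGTG, the core of an element bound by TFEB and related factors. In the windows defined above it was in 7 of 22 lysosomal genes with a promoter (31.8%), in 3 of 12 called ones, in 13.4% of all genes tested and in 8.09% of all genes of the RefSeq table. The 3 called genes that held it, all higher at day 3, are shown with the palindrome in capitals.
Ctsd, chr7:142387908-142387937, minus strand: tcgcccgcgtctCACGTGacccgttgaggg
Lamp1, chr8:13159134-13159163, plus strand: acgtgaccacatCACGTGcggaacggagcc
Gla, chrX:134601182-134601211, minus strand: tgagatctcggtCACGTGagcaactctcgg
The share of called genes with the palindrome was not higher than that of the whole list.

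Of 13 tested genes of lipid uptake, storage and efflux, 6 were higher (Apoe, Fabp4, Fabp5, Abca1, Lipa and Npc2) and none lower (1 at an unadjusted p under 0.05, and 0 by DESeq2), with a median of 0.82. Each of the 6 was called in each fit that left out 1 plate. In rule-chosen wells none of 17 was called higher (4 at an unadjusted p under 0.05, and 1 by DESeq2), and Ch25h, too sparse to be tested with both rows, was lower by edgeR (−3.66, adjusted p = 0.0023). That fit holds 1 day-1 plate, so the p carries no spread between day-1 plates. Apoe (chromosome 7, 19696109 to 19699188), the apolipoprotein that takes up exported cholesterol, was at 3824, 3263, 2282, 2313 and 2130 CPM at day 1. It was at 8918, 16846, 9468, 11684, 12509 and 9258 CPM at day 3, a 4.23-fold difference with no overlap (2.08 ± 0.28, adjusted p = 0.000283). The fatty acid-binding protein Fabp5 varied widely, from 14.9 to 885 CPM at day 1 and from 170 to 3299 CPM at day 3 (2.88 ± 0.81, adjusted p = 0.0212), with the day-3 plates 1 and 3 low, and its call was lost under DESeq2. Fabp4 is also an endothelial gene, at 1563 CPM in the other wells of day 1 and 575 CPM in those of day 3.

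Of 16 tested phagocyte genes of the healing infarct, 6 were higher and 1 lower (Anxa2). Apoe, Fabp4 and Fabp5, 3 of the 6, are also on the lipid list and were counted there. Of the 7, 4 were called in each fit that left out 1 plate. Anxa2 was called in 1 of 11 such fits and Anxa5, one of the 6, in 5 of 11. In rule-chosen wells 0 of 20 were called (5 higher at an unadjusted p under 0.05, and 1 by DESeq2), with a median of 0.97. Gpnmb (chromosome 6, 49036546 to 49070929), a transmembrane glycoprotein of phagocytes loaded with lipid, had the largest difference among them. It was at 16.8, 133, 0, 85.3 and 0 CPM at day 1 and at 529, 374, 4982, 655, 5840 and 5641 CPM at day 3 (5.82 ± 0.95, adjusted p = 0.000753). Each day-3 plate was above each day-1 plate, but the day-3 plates fell apart, with plates 4, 6 and 7 near 5000 CPM or above and plates 1, 3 and 5 at 655 CPM or below. Of these, plates 1, 3 and 5 held 28370, 29444 and 39713 UMIs in their macrophage wells, fewer than any of the other 3. Trem2, a lipid receptor of phagocytes, was at 168, 262, 180, 139 and 14.9 CPM and then at 211, 170, 556, 504, 724 and 331 CPM (1.49 ± 0.43, adjusted p = 0.022). Its call was lost without day-1 plate 5 or day-3 plate 4 (adjusted p = 0.052 for each) and without matched wells (0.108). Spp1, which encodes osteopontin, did not pass, at 3159 to 8509 CPM at day 1 and 781 to 9578 CPM at day 3 (−0.09 ± 0.54, adjusted p = 0.932), with day-3 plates 1 and 3 low at 952 and 781 CPM. Its log2 fold change was 1.06 by the rule as given. Lgals3, Lpl, Cd63 and Vim did not pass either.

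Genes listed for resident heart macrophages were mixed. Of 11 tested, 4 were higher (Folr2, Gas6, Igf1 and Sepp1) and none lower (0 at an unadjusted p under 0.05, and 0 by DESeq2), with a median of 0.11. By the rule as given the median was 0.87 over 16 genes. In rule-chosen wells 0 of 16 were called (3 higher and 1 lower at an unadjusted p under 0.05, and 1 in each direction by DESeq2). Sepp1, now named Selenop, encodes a secreted selenium carrier and was at 361, 718, 685, 85.3 and 298 CPM at day 1. At day 3 it was at 2573, 7472, 1675, 5515, 3011 and 2239 CPM, an 8.73-fold difference without overlap (3.13 ± 0.50, adjusted p = 0.000689). The growth factor Igf1 (chromosome 10, 87858265 to 87937042) was at 101, 106, 60.1, 192 and 29.8 CPM and then at 282, 577, 567, 529, 495 and 602 CPM (2.41 ± 0.34, adjusted p = 0.000302). Folr2, a folate receptor of resident macrophages, was at 42.6 to 294 CPM and then at 219 to 856 CPM (1.57 ± 0.45, adjusted p = 0.023). Its call was lost in wells of at least 2000 UMIs and with S100a8 and S100a9 under 0.2% (adjusted p = 0.053), and its log2 fold change by the rule as given was 0.36. The hyaluronan receptor Lyve1 separated day-3 plates instead of days. It was at 352, 125, 228, 522 and 670 CPM at day 1 and at 1445, 1460, 18.2, 277, 0 and 14.5 CPM at day 3 (0.11 ± 1.07, adjusted p = 0.961). The day-3 plates high in Lyve1 (1 and 3) were low in Gpnmb and Spp1, and the plates 4, 6 and 7 were the reverse. Cd163, a haemoglobin scavenger receptor, ranged from 26.6 to 2042 CPM at day 1 and from 8.72 to 747 CPM at day 3 (−1.59 ± 1.12, adjusted p = 0.342).

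Of the 24 genes named by the smallest p, 12 in each direction, those not yet described carried diverse functions. Timp2 (chromosome 11, 118301069 to 118355740), an inhibitor of matrix metalloproteinases, had the smallest p of all. It was at 235, 247, 168, 213 and 223 CPM at day 1 and at 811, 747, 824, 781, 791 and 865 CPM at day 3, with little spread on either day (1.92 ± 0.21, adjusted p = 0.000112). Itm2b, a membrane protein of the secretory path, was at 426 to 1493 CPM and then at 3143 to 4245 CPM (1.92 ± 0.30, adjusted p = 0.000549). The phospholipase family member Pld3, the RNA-editing enzyme Apobec1, the serpin Serpinb6a, the prenylcysteine oxidase Pcyox1 and the glycogen primer Gyg rose by 2.21 to 2.72 on the log2 scale. Slc25a4, an ADP/ATP carrier, rose by 2.16 ± 0.32, and it was also at 4948 CPM in the other wells of day 3 against 646 CPM in those of day 1. Without wells of 2% or more cardiomyocyte genes its log2 fold change was 1.77 (adjusted p = 0.000521). The cardiomyocyte genes Actc1 and Myh6 stayed higher in that fit, at 3.22 and 2.51. Leaving out these wells thus did not remove cardiomyocyte transcripts, and their part in the rise of Slc25a4 was not tested. Gyg was at 32.7 CPM in the other wells of day 1 and 158 CPM in those of day 3. Sdc4, a heparan sulfate proteoglycan, had a log2 fold change of −3.39 ± 0.43, and AA467197 one of −4.11 ± 0.60. Fn1 encodes fibronectin and was at 6491, 4494, 6787, 4552 and 7583 CPM at day 1 and at 1586, 2717, 1441, 1083, 781 and 1090 CPM at day 3 (−2.05 ± 0.30, adjusted p = 0.000384). The matrix list as a whole was split, with 5 of 14 tested genes higher and 5 lower, of which 3 and 5 were called in each fit that left out 1 plate. Thbs1, the matricellular thrombospondin-1, was at 512 to 5989 CPM and then at 34.0 to 391 CPM (−3.71 ± 0.62, adjusted p = 0.000896). Sparc was higher (2.17 ± 0.57, adjusted p = 0.0133) with plates that overlapped, and it was at 5535 CPM in the other wells of day 3.

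**Figure D4:**
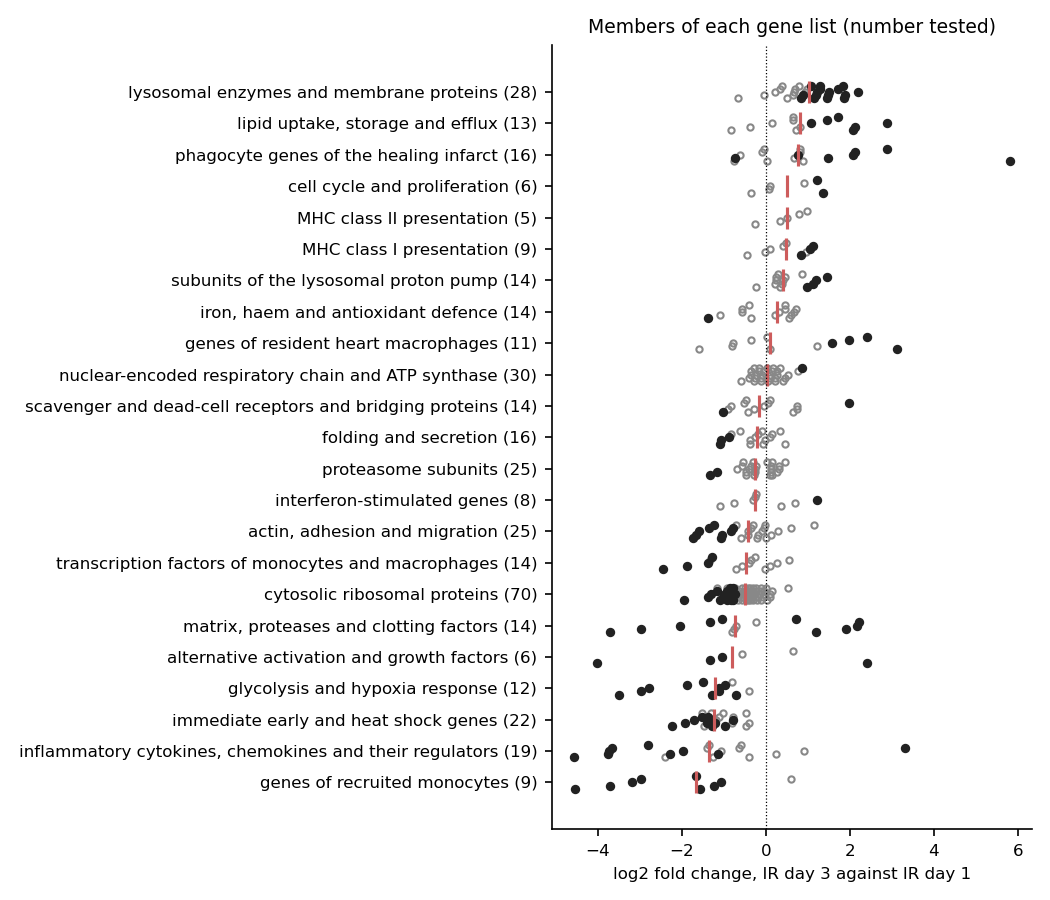
Log2 fold change of each tested member of each gene list (horizontal axis), IR day 3 against IR day 1 with both lysozyme rows; black points were called, grey open points were not, red bars mark the list's median and the number tested is in parentheses. Medians of the monocyte, cytokine, glycolysis and immediate early lists run from −1.65 to −1.20, and the lysosomal median is 1.03.

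Of 9 tested class I genes, 3 were higher (B2m, H2-K1 and H2-D1) and none lower (0 at an unadjusted p under 0.05, and 0 by DESeq2), with a median of 0.48, and 2 of the 3 were called in each fit that left out 1 plate. The class I median was −0.16 by the rule as given. B2m, the light chain of class I, was at 1045 to 2345 CPM at day 1 and at 3205 to 4205 CPM at day 3 (1.06 ± 0.25, adjusted p = 0.00784). H2-K1 and H2-D1 are members of a family of near-identical genes, so their split is uncertain. Of 5 tested class II genes, with a median of 0.51, none was called by edgeR (0 at an unadjusted p under 0.05, and 0 by DESeq2). No test compared the classes. H2-Aa was at 1115, 448, 481, 192 and 2592 CPM at day 1 and at 2115, 3702, 391, 529, 1429 and 420 CPM at day 3, so the ranges of the days overlapped. The median of 7 class II genes was 2.28 by the rule as given, none was called by edgeR, 4 were higher at an unadjusted p under 0.05 and DESeq2 called 3 higher.

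Of 70 tested cytosolic ribosomal proteins, 19 were lower and none higher (1 at an unadjusted p under 0.05, and 0 by DESeq2), with a median of −0.49. Of the 19, 8 were called in each fit that left out 1 plate and 14 without matched wells, and in rule-chosen wells 1 of 72 was called lower. Rpl7a was at 738 to 1247 CPM at day 1 and at 211 to 448 CPM at day 3 (−1.38 ± 0.26, adjusted p = 0.0017). Ribosomal protein genes have many pseudogene copies, so that single values depend on read assignment. Of 25 genes of actin, adhesion and migration, 9 were lower (among them Itgam, S100a11, S100a10, Myh9 and Pfn1) and none higher (2 at an unadjusted p under 0.05, and 0 by DESeq2). Of the 9, 4 were called in each fit that left out 1 plate and 5 without matched wells, and Myh9 was lost without day-3 plate 4 or 7. The rule as given called 0 of 25 (1 higher and 3 lower at an unadjusted p under 0.05, and 0 by DESeq2). Itgam, the chain CD11b of the complement receptor 3, was at 718 to 1814 CPM and then at 200 to 543 CPM (−1.72 ± 0.29, adjusted p = 0.000949). Actb did not pass (−0.43, adjusted p = 0.22), nor did Actg1 (−0.01, adjusted p = 0.978). Of 25 proteasome subunits 2 were lower (Psma6 and Psmb3), a smaller share than the 10.7% of all genes tested, and both were called in each fit that left out 1 plate. Of 16 folding and secretion genes 3 were lower (Sec61g, Manf and Atf4), and none of the 3 was called in each such fit.

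How the genes were spread over single wells was read from a random draw of 1000 UMIs per well, which puts deep and shallow wells on one depth. Intervals are exact binomial 95% intervals and cover counting error only. Ccl2 was seen in 88.1% of 59 day-1 wells (77.1 to 95.1%) and in 36.3% of 215 day-3 wells (29.9 to 43.1%). Cardiomyocyte wells gave 38.5% and 4.15%. Gpnmb was seen in 8.47% of the day-1 wells (2.81 to 18.7%) and 71.2% of the day-3 wells (64.6 to 77.1%). The Gpnmb share of cardiomyocyte wells was 0 of 26 and 21.8% of 289, well under that of the macrophage wells. Their median depths were 1563 and 2619 UMIs, against 11087 and 7115 UMIs in the macrophage wells before the draw. Il1b went from 33.9% to 3.26% of wells and Chi3l3 from 28.8% to 5.58%. Apoe was in most wells on both days, 78.0% and 96.7%, beside 26.9% and 49.8% of cardiomyocyte wells. Spp1 was in 54.2% and 80.0% of wells, while between single day-3 plates it ran from 21.1% to 91.4%. Lyve1 was in 10.2% and 7.91% of wells and in 57.9% on the day-3 plate where it was highest. Before the draw, Ccl2 was in 57 of 59 and 138 of 215 wells and Gpnmb in 9 of 59 and 178 of 215.

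**Figure D5:**
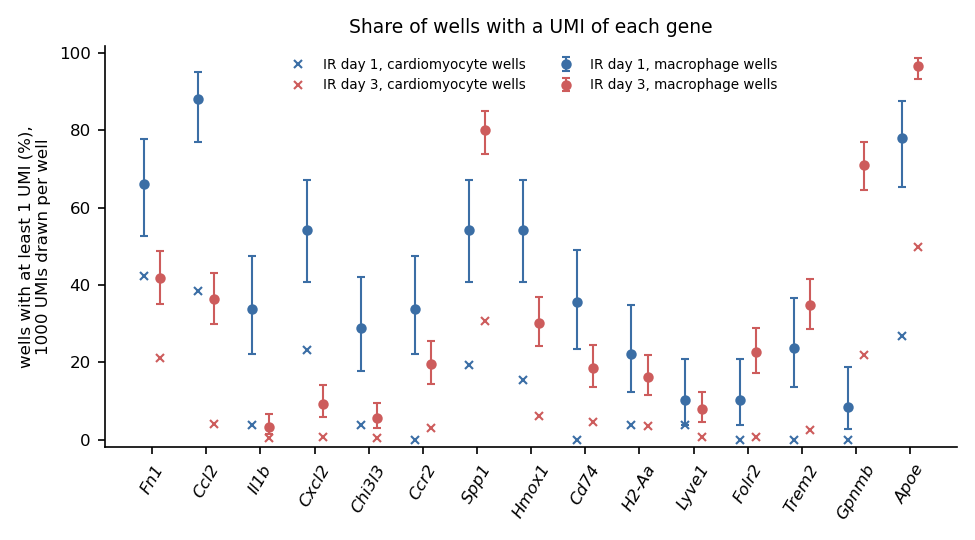
Share of wells with at least 1 UMI of each gene after drawing 1000 UMIs per well (vertical axis, percent), for macrophage wells of IR day 1 and IR day 3 with both lysozyme rows (points with exact binomial 95% intervals) and for cardiomyocyte wells (crosses). Ccl2 lies at 88.1% on day 1 and 36.3% on day 3, and Gpnmb at 8.47% and 71.2%.

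Genes of the cell cycle were sparse. Of 6 tested in edgeR, Pcna and the histone H2afz were higher, while DESeq2 called 14 of the 28 it tested higher, beside 2.93% of all 7876 genes it tested, whose median log2 fold change was 0.339. Pcna was called in 6 of 11 fits that left out 1 plate and lost without matched wells, and the rule as given called 0 of 20 (9 higher at an unadjusted p under 0.05, and 0 by DESeq2). H2afz was at 149 to 394 CPM and then at 408 to 905 CPM (1.36 ± 0.28, adjusted p = 0.00329). Top2a, a topoisomerase of dividing cells that was too sparse to be tested in edgeR, was at 8.39, 3.80, 0, 0 and 0 CPM at day 1 and at 0, 0, 130, 227, 105 and 79.9 CPM at day 3. It was seen in 0 of 59 day-1 wells and 5.58% of day-3 wells after the draw, beside 3.85% and 3.81% of cardiomyocyte wells, so the day-3 share is near that background. Mki67, another marker of dividing cells, overlapped between the days (0.90 ± 0.51, adjusted p = 0.231). After the draw it was seen in 1.69% of day-1 wells (exact 95% interval 0.04 to 9.09) and 9.30% of day-3 wells (5.78 to 14.0), beside 3.85% and 2.77% (1.2 to 5.38) of cardiomyocyte wells.

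Macrophage wells of sham hearts, pooled because they were few, give the background. The sham plates of day 1 held 22 such wells with 148797 UMIs on 4 plates. Those of day 14, leaving out the plate with matched wells, held 8 wells with 39181 UMIs, 6 of them on plate 8 and 1 each on plates 3 and 6. A count of 3 UMIs is 20.2 and 76.6 CPM there, and no test was made. Ccl2 was at 2816 CPM in sham wells of day 1, within the IR day-1 range, and at 970 CPM in those of day 14, within the IR day-3 range. Fn1 was at 3212 CPM, between the ranges of the IR days, and at 255 CPM, below both. Apoe was at 11002 and 11740 CPM, both within the IR day-3 range. Timp2 was at 685 and 1072 CPM and Sepp1 at 3468 and 4696 CPM, all above each IR day-1 plate. Gpnmb was at 6.72 CPM and 0, below each IR day-3 plate, and Ctsb was at 4241 and 3803 CPM, within the IR day-1 range. Sham wells of day 1 were thus near IR day 1 in Ccl2 and Ctsb and near IR day 3 in Apoe and Sepp1.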

How the data were processed

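Per the labels and methods, the authors sequenced single heart cells with SORT-seq, aligned reads with BWA-ALN to GRCm38/mm10 and counted UMIs per gene and cell barcode. The version of BWA and how reads that fit several genes were assigned are not given in the sources used here. The deposited tables hold UMI counts per gene and well, not normalized, 1 plate per table. Mitochondrial genes and spike-ins were left out. Macrophage wells were chosen as the report states, summed per plate, and compared with edgeR 4.0.16 (R 4.3.3): filterByExpr, TMM scaling, the quasi-likelihood F test and Benjamini-Hochberg adjustment over all genes tested, at 0.05. DESeq2 1.42.0 was an alternative. Groups came from the sample titles, and a plate was a replicate. The share of wells that passed the rule was described by plate. Its planned exact permutation test is not printed, since the share is an outcome of the rule. Exact binomial intervals came from scipy 1.17.1.

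The members, gene lists and tests were chosen with earlier results of these data known. Named genes were the 12 higher and 12 lower genes with the smallest p, a log2 fold change of at least 1 and a mean of at least 100 CPM in the higher group, the first 2 genes of each list and its 2 most changed called genes, and the genes whose share of wells was fixed. Other list members were named after their values were seen. Coordinates are from GENCODE vM21, older symbols were matched through RefSeq. In data simulated from these plates with 4-fold changes, the rule as given recovered 58% of 200 changed genes and both rows 99.5% of 191. The simulation gave all genes the same spread, changed only genes with a mean above 100 CPM and drew plates as independent. With both rows it also called 8 unchanged genes. Its shares therefore do not carry over to sparse genes, to genes that vary widely between plates or to plates that share a mouse. Numbers shared by plates of both days did not pair them (correlations of −0.118 to −0.026). Some members of the lists are not reported here.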

Additional observations from a re-analysis of the deposited data

Results flagged for a closer look

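A plate is listed here when its level stood apart from the other plates of its day by Dixon's test at the 95% level. Of 140 groups of plates tested over the named genes, 14 held such a plate, where chance gives about 1 in 20. All values are CPM with both lysozyme rows. Day-1 plate 8 stood apart in AA467197 at 909 (the others 148 to 277), in Creg1 at 104 (the others 201 to 213) and in Cxcl3 at 4157 (the others 16.8 to 544). Day-1 plate 5 was high in Nr4a1 at 1439, with the next plate at 715, and day-1 plate 1 was low in Tubb6 at 218, with the next at 362. The shallow day-3 plate 3 was high in F10 at 136 (next 35.1), Fos at 2887 (next 1302) and Nr4a1 at 747 (next 136), and low in Pcna at 67.9 (next 404). Day-3 plate 1 was low in Hif1a at 0, Igf1 at 282 and Mif at 70.5, with the next plates at 76.2, 495 and 204. Day-3 plate 5 was high in Gapdh at 831 (next 282) and low in Pld3 at 126 (next 408).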

How the results depend on the processing

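The alternatives that count Lyz1, keep plates with at least 1 macrophage well, or use shared plate numbers were chosen after seeing the data, as was each alternative to the count with both rows. By the rule as given, 21 genes were called. The number was 71 with no gene filter, 85 in wells of at least 2000 UMIs, 50 on plates of at least 10 wells, 75 on plates of at least 1 well, 7 with cardiomyocyte genes under 2%, 10 without wells that matched another plate, and 0 of 512 in wells drawn to 1000 UMIs (57 at an unadjusted p under 0.05). Leaving out 1 plate gave 1 to 54, with 1 without day-3 plate 7, 3 without plate 4, 10 without plate 6 and 54 without plate 3. DESeq2 called 27, of which 59.3% were higher. Counting both rows gave 353 and, on the 4 plate numbers shared by both days with a replicate block, 37.

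With both rows, 353 became 904 with no gene filter (57.5% higher against 47.6%), 27 of 121 in wells drawn to 1000 UMIs, 222 without matched wells, 84 on plates with shared numbers and 37 there with the replicate block. Leaving out 1 plate gave 209 to 389. DESeq2 called 494, its median log2 fold change over a wider set of genes being 0.339. Scaling by relative log expression, other limits on UMIs, S100a8 and S100a9, cardiomyocyte genes or Rn45s, plate 9 and plates of at least 1 well gave 314 to 398. By the rule as given, no paired analysis was possible because the days share only plate number 3. With both rows the block was fitted, as above, but the numbers do not pair the plates. The cause of these changes was not tested.

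The difference in the share of wells between the days, 18.3 percentage points by the rule as given, was 15.8 at 500 UMIs, 12.7 at 2000 UMIs, 26.5 over all plates, 20.9 with both rows and 24.4 with both rows over all plates. Leaving out 1 plate gave 13.8 to 20.6. At a macrophage sum of 2% no day-1 plate had 5 wells, so no value was had.

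The named genes whose sign turned with both rows were not called. Under DESeq2 Rpl10 was at −0.03, and with no gene filter Rpl10 at −0.04 and Lyve1 at −0.15. At 500 UMIs Cebpa was at 0.03 and Hsp90b1 at 0.02, and at 2000 UMIs Cebpa at 0.18, H2-Aa at −0.40, Lyve1 at −3.68 and Spp1 at 0.47. With S100a8 and S100a9 under 0.2% Actg1 was at 0.05 and Cd74 at 0.19, with cardiomyocyte genes under 2% Actg1 at 0.04 and Cebpa at 0.05, and without Rn45s Actg1 at 0.03 and Cebpa at 0.02. Without matched wells Actg1 was at 0.11, Cebpa at 0.23, Fcgr1 at −0.12 and Rpl10 at −0.14, and with plate 9 Actg1 at 0.12, Cebpa at 0.13, Hsp90b1 at 0.04 and Spp1 at 0.09. With at least 1 well per plate Fcer1g was at 0.02 and Hsp90b1 at 0.17. On plates with shared numbers Actg1 was at 0.07, Cd74 at 0.10, Fcer1g at 0.02, Hsp90b1 at 0.05 and Rpl10 at −0.01, and with the replicate block Actg1 was at 0.10, Ccl4 at 0.50, Cd163 at 0.52, Cd74 at 0.27, Fcer1g at 0.00, Hsp90b1 at 0.09, Ndufa1 at −0.06 and Rpl10 at −0.03. By the rule as given Ccl4 was called lower, and this 0.50 has the other sign. Leaving out 1 plate gave Actg1 −0.11 to 0.13, Ccl4 −0.85 to 0.19, Cd163 −2.61 to 0.05, Cd74 −0.51 to 0.09, Cebpa −0.28 to 0.36, Fcer1g −0.11 to 0.02, Fcgr1 −0.12 to 0.25, H2-Aa −0.01 to 1.33, Hsp90b1 −0.19 to 0.08, Lyve1 −0.97 to 0.59, Rpl10 −0.07 to 0.13 and Spp1 −0.28 to 0.18. Of 69 called named genes, 58 were called in each fit without 1 plate in which they were tested. Calls with both rows that were lost without matched wells included those of Ccl6, Cd44, Ctsh, Emr1, Grn, Irf5, Klf4, Ldha, Man2b1, Sec61g, Atf4 and Tpp1. Calls lost under DESeq2 included Ptgs2, Man2b1, Tpp1 and Atp6v1d, and those lost in wells drawn to 1000 UMIs included H2-K1, Pfn1, Pkm and Psap.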

Other observations

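Gene groups not described above held few called genes. Of 14 tested genes of iron, haem and antioxidant defence, 1 was lower, the peroxiredoxin Prdx6 (−1.38 ± 0.40, adjusted p = 0.023 in edgeR), and none was higher (1 at an unadjusted p under 0.05, and 0 by DESeq2). The call of Prdx6 was lost without day-1 plate 5 or 8, without day-3 plate 4 or 7 and with S100a8 and S100a9 under 0.2%, and its log2 fold change was 0.28 by the rule as given. Hmox1, the enzyme that breaks down haem, was at 889 to 2838 CPM on the day-1 plates and 238 to 1657 CPM on the day-3 plates (−1.09, adjusted p = 0.0651). The ferritin chain Fth1 was at 5322 to 11961 CPM and 7981 to 16496 CPM (0.60, adjusted p = 0.159). Of 8 tested interferon-stimulated genes, Oasl2 was higher (1.23 ± 0.37, adjusted p = 0.0287), its log2 fold change was −0.03 by the rule as given, and its call was lost without day-1 plate 1, 4 or 5, under DESeq2, at 2000 UMIs and without matched wells. Ifit1 and Ifit2, of the same class, were at 152 and 144 CPM on day-1 plate 3 and at 14.9 CPM or below on the other 4 day-1 plates. Of 14 tested receptors and bridging proteins for dead cells, Gas6 was higher and Fcgr2b lower. Fcgr2b was called in 6 of 11 fits that left out 1 plate and lost without matched wells and with S100a8 and S100a9 under 0.2%, and Gas6 was lost at 2000 UMIs. Axl and Mertk were too sparse to be tested.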
